A study of Mus musculus with 6 samples.

Results

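The genes described here are the nuclear genes of oxidative phosphorylation, chosen by their symbols in the authors' comparison tables: the Nduf subunits and assembly factors of complex I, Sdha to Sdhd of complex II, the Uqcr genes and Cyc1 of complex III, the Cox4 to Cox8 genes of complex IV, the Atp5 genes of complex V, and Cycs. The choice gave 94 genes of the 27179 gene IDs counted. Complex I held 44 of them (7 core subunits, 27 accessory subunits, 8 assembly factors and 2 gene copies), complex II 4, complex III 10, complex IV 17 and complex V 18, and Cycs stood alone. The genes of complexes III and V include 1 pseudogene each, also in the counts by complex below. Ndufa4 and Ndufa4l2 were counted with complex IV, to which the Ndufa4 protein belongs.

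The 6 libraries, 2 a group, hold RNA of mouse tissue. H7 tumours grew from PANC02-H7 cells and UNKC tumours from UN-KC-6141 cells, both mouse pancreatic carcinoma lines injected into the pancreas of C57BL/6 mice and removed after 20 days. The third group was whole pancreas of C57BL/6 mice, and no mouse received a treatment. Each line stands for its tumour type alone, the tumours still held cells of the host, and age, sex and the mouse behind each library were not given, so p-values measure only the spread between these libraries.

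Oxidative phosphorylation takes place in the inner mitochondrial membrane. Complexes I and II pass electrons from NADH and succinate to ubiquinone, complex III passes them to cytochrome c, and complex IV to oxygen, and complex V uses the resulting proton gradient to make ATP. Most subunits are encoded in the nucleus and imported, and a small set of core subunits is encoded in mitochondrial DNA. Acinar cells, which make up most of the pancreas, spend much ATP on making and secreting digestive enzymes.

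The tumour libraries held 33332516 and 36307030 reads in genes for H7 and 40507546 and 38728423 for UNKC, against 12077320 and 8204225 for normal pancreas. Ribosomal RNA took 20.1% to 27.8% of the reads in tumours and 85.0% and 86.4% in normal pancreas. The 94 genes had 133126 to 183703 reads per tumour library, against 1235 and 1319 per normal library. Of the reads outside ribosomal RNA they took 0.558% to 0.652% in tumours, against 0.159% and 0.189% in normal pancreas. The median gene of the 94 had 855 and 1157 reads in H7 tumours and 1150 and 1167 in UNKC tumours, against 6 and 7.5 in normal pancreas. In normal pancreas 10 of the 94 genes had no read and 19 had 1 to 6 reads over both libraries, so the comparisons with normal pancreas rest on small counts. Reads are counted per mate, so 6 reads are about 3 read pairs.

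Promoters are shown for 5 genes to place known control motifs beside the expression values: 2 ubiquitous genes with a site for the regulator NRF1, 1 with a site for YY1, 1 of the genes that differed between the tumours, and 1 muscle isoform. Each window runs from 250 bases before to 50 bases after a RefSeq start in the mouse assembly GRCm38.p6. Capitals mark matches on either strand: the 10-letter NRF1 sequence seen in capitals in Uqcrc1, AAGATGGCG for YY1 and CGGAAG or its reverse complement for ETS factors such as GABPA. In Cox8b, capitals mark CAGCTG (an E-box, CANNTG) and TATAAA; E-boxes of the other windows are not marked. Uqcrc1 lies at chr9:108936398-108936697 on the plus strand, Cox6a1 at chr5:115348909-115349208 on the minus strand, Ndufs4 at chr13:114388045-114388344 on the minus strand, Ndufa4 at chr6:11907401-11907700 on the minus strand and Cox8b at chr7:140900397-140900696 on the minus strand.
Uqcrc1: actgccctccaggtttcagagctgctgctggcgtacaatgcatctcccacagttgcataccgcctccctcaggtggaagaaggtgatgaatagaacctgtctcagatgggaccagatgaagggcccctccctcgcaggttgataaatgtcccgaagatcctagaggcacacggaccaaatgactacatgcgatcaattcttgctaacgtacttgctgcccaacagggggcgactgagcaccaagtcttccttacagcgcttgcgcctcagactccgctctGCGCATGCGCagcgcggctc
Cox6a1: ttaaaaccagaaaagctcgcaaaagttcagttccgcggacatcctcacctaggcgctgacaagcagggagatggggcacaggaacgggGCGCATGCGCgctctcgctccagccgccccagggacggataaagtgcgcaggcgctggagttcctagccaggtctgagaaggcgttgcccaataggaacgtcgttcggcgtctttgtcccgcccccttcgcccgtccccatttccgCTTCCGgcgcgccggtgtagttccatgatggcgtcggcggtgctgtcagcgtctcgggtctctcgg
Ndufs4: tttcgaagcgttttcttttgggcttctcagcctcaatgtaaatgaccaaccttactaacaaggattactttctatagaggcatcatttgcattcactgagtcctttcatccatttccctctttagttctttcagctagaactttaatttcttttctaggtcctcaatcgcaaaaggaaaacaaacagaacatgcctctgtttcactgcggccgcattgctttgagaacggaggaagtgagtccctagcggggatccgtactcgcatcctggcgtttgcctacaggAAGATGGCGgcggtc
Ndufa4: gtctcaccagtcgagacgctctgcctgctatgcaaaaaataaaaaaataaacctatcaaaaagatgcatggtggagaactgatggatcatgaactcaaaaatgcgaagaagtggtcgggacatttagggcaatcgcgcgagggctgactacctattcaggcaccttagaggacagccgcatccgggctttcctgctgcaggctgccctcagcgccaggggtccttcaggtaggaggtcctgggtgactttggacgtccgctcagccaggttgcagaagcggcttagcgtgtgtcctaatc
Cox8b: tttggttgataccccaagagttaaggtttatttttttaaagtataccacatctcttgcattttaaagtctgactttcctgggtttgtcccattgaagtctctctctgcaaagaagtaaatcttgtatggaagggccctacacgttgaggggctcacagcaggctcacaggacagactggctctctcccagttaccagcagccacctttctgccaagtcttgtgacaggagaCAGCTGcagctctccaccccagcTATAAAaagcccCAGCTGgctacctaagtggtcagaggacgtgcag
The NRF1 sequence was in 8.97% of the 78 windows found for 73 of the genes, against 0.971% of all 32851 windows. The YY1 sequence was in 10.3% of the windows of these genes, against 1.40% of all windows. The ETS sequence was in 44.9% against 16.9%, and the 3 motifs may lie in the same window. The E-box was in 67.9% against 72.3%, and TATAAA in 10.3% against 13.6%. Ndufa4 had no match to any of the 5 motifs in its window.

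Levels were given as CPM, the reads scaled to a common effective library size, which TMM scaling sets on the assumption that most genes keep their level. The 94 genes together summed to 1928 and 2274 CPM in H7 tumours and 2035 and 2122 CPM in UNKC tumours, against 572 and 629 CPM in normal pancreas. Every tumour library stood above both normal libraries in this sum, and the H7 and UNKC libraries overlapped. Complex V, the ATP synthase, summed to 733 and 893 CPM in H7 and 840 and 869 CPM in UNKC tumours, against 193 and 204 CPM in normal pancreas. Complex I, the NADH dehydrogenase, summed to 543 and 641 CPM in H7 and 534 and 564 CPM in UNKC tumours, against 204 and 217 CPM in normal pancreas. The sums of complexes II, III and IV were also higher in each tumour library than in either normal library.

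**Figure D1:**
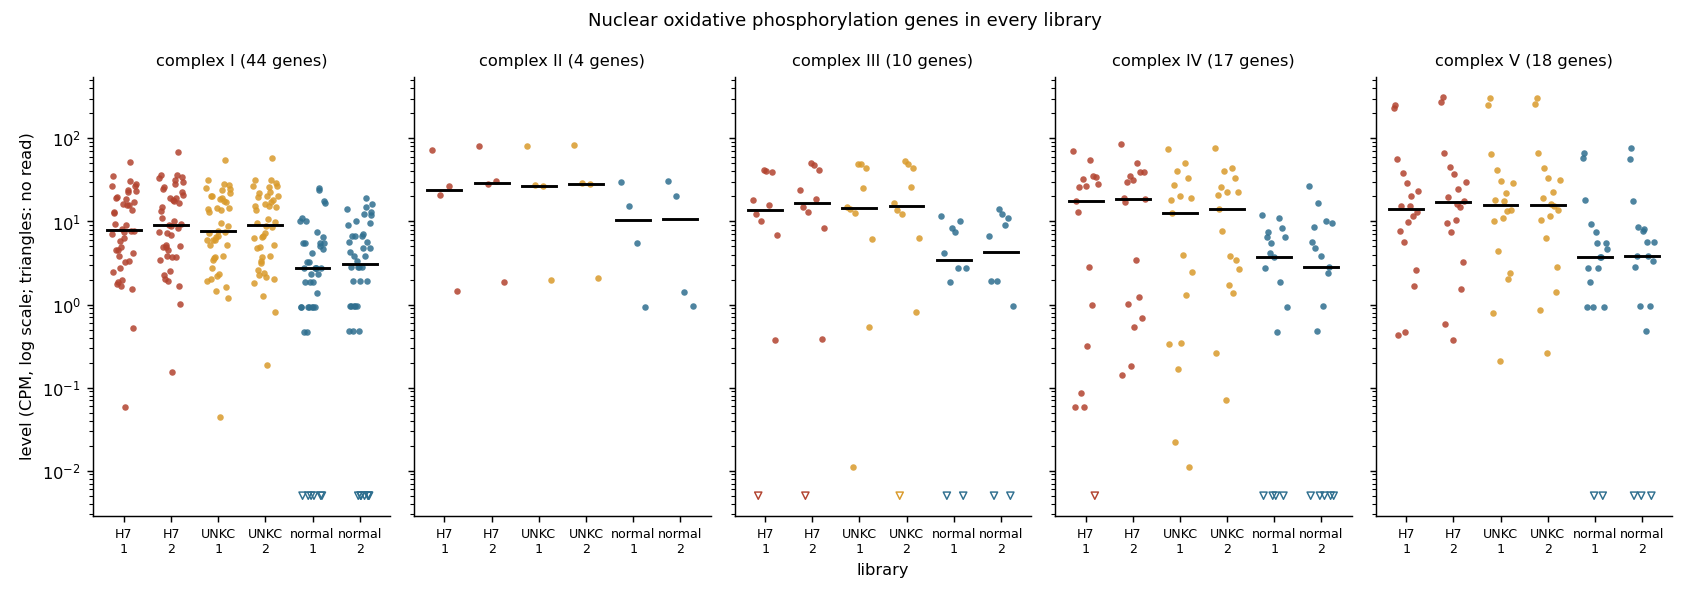
Level of each gene in each library, by complex (y axis, CPM on a log scale; x axis, library; points, genes; bars, median; open triangles, genes with no read; Cycs is left out). The medians of the tumour libraries lie above those of the normal libraries in each complex, for example at 7.61 to 9.19 CPM in tumours and 2.78 and 3.10 CPM in normal pancreas for complex I.

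Per kilobase of gene length, the beta and alpha subunits of the ATP synthase catalytic head, Atp5b and Atp5a1, and Cox4i1, a common subunit of complex IV, were the 3 most abundant genes in each group. Atp5b averaged 150.5 ± 23.9 CPM per kb in H7 and 162.7 ± 2.12 in UNKC tumours, against 38.4 ± 3.83 in normal pancreas (SD, n = 2 each). Cox4i1 averaged 115 ± 16.7 CPM per kb in H7 and 111 ± 0.823 in UNKC tumours, against 28.5 ± 15.3 in normal pancreas. Atp5a1 averaged 104 ± 12.7, 106 ± 2.64 and 23.8 ± 0.310 CPM per kb in H7, UNKC and normal samples, so its order with Cox4i1 lies within their spread in H7 tumours and normal pancreas. Uqcrh, the hinge subunit of complex III, followed in UNKC tumours at 80.6 ± 0.134 CPM per kb, beside 73.8 ± 3.59 in H7 tumours and 19.4 ± 1.02 in normal pancreas. Cycs, the electron carrier cytochrome c, was low in all groups, at 0.964 ± 0.198, 0.803 ± 0.0289 and 0.927 ± 0.454 CPM per kb. The rank order of mean levels correlated at Spearman's rho = 0.967 between H7 and UNKC tumours (93 genes), and at 0.814 and 0.832 between H7 or UNKC tumours and normal pancreas (84 genes with reads in each), values that share gene length and counting. Of the 10 highest genes per kilobase, 10, 10 and 8 were also among the 10 highest by the authors' TPM in H7, UNKC and normal samples.

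H7 and UNKC tumours were each set against normal pancreas to ask how the genes differ between tumour and tissue of origin. In H7 tumours 64 of the 93 genes tested were higher than in normal pancreas and 0 were lower (edgeR quasi-likelihood test, adjusted p below 0.05), beside 29.6% higher and 21.9% lower among all 16306 genes tested, or 51.5% in either direction. In UNKC tumours 62 were higher and 0 lower, beside 29.1% and 19.3% of all genes, or 48.4% in either direction. The median log2 fold change of the genes was 2.01 in H7 and 1.93 in UNKC tumours, or 1.79 and 1.80 with genes unread in normal pancreas set at a bound, against 0.34 and 0.42 over all genes. A gene could enter the test through the tumours alone. Of the tested genes, 9 had no read in normal pancreas and 19 had 1 to 6 reads over both normal libraries. The counts and medians include these genes, and Uqcr11 was the 1 gene not tested. At an unadjusted p below 0.05 the counts were 68 and 67 higher and 0 lower in both, a threshold for which no share of all genes is given. DESeq2 gave 65 higher in H7 and 59 in UNKC tumours and 0 lower, beside 26.9% and 26.8% of all genes higher and 28.7% and 26.5% lower. Both comparisons share the normal libraries. Scaling by total counts moved the median of all genes to 3.61 in H7 and 3.77 in UNKC tumours, and that of the list to 5.28 and 5.30, so values here are relative to the TMM scaling. Without the second replicate of both tumours, the 2 libraries with the most skeletal muscle marker reads, each tumour group keeps 1 library. That fit gave list medians of 1.84 and 1.88.

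The genes are short, and that moved with the fold changes. Their median length was 679.5 bases, with 64 of 94 under 1000 bases, against 2741 bases over all genes tested. Outside the list, the median log2 fold change of H7 tumours over normal pancreas was 1.76 for genes under 500 bases and -0.12 for genes of 4000 bases or more, and that of UNKC tumours 1.59 and -0.03. With the trend on length removed, 20 of the 93 genes were higher and 4 lower in H7 tumours (median 0.56), beside 22.0% and 25.6% of all genes. In UNKC tumours 17 were higher and 5 lower (median 0.47), beside 17.8% and 26.2%. The share of genes called higher was then near that of all genes. The part of RNA length, RNA quality or library preparation in this trend was not tested. Among genes from 500 to under 1000 bases, 32 of 43 of the list were higher in H7 tumours with a median of 2.14, beside 34.0% and a median of 1.52 outside the list.

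**Figure D2:**
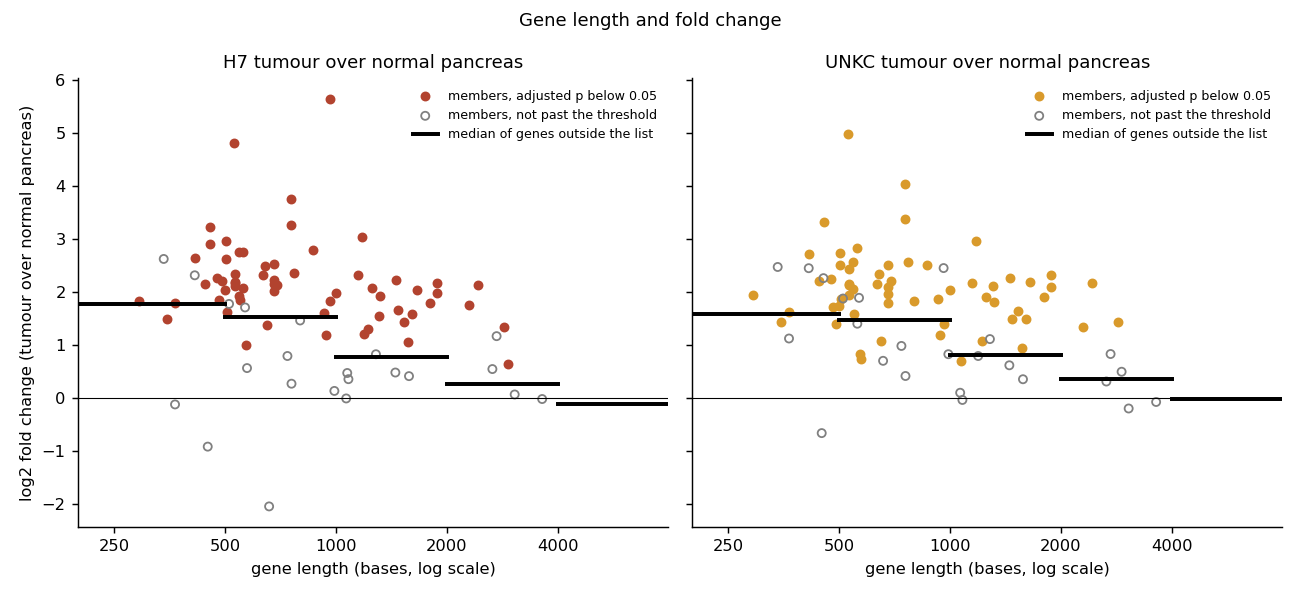
Log2 fold change of each gene against its length (y axis, log2 fold change of H7 tumour, left, or UNKC tumour, right, over normal pancreas; x axis, gene length in bases, log scale; filled points, adjusted p below 0.05; open points, not past the threshold; bars, median of genes outside the list in 5 length classes, drawn to the edge of the plot for the outer classes; genes with no read in normal pancreas are left out). The bars step down from 1.76 to -0.12 in H7 and from 1.59 to -0.03 in UNKC tumours, and most filled points lie above the bar of their class.

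Complex I holds a core that carries electrons and an outer set of accessory subunits. Of its 7 nuclear core subunits 6 were higher in H7 and 5 in UNKC tumours, of 27 accessory subunits 21 and 20, and of 8 assembly factors 3 and 3. These counts, and those by complex below, stand beside 29.6% of all genes higher in H7 and 29.1% in UNKC tumours, and the assembly factors lie near that share. Ndufs1, the largest core subunit, had 30.9 and 35.9 CPM in H7 and 28.1 and 32.0 CPM in UNKC tumours, against 23.6 and 19.1 CPM in normal pancreas. Its log2 fold changes were 0.64 ± 0.18 in H7 (SE, as for each fold change that follows; adjusted p = 0.0264) and 0.49 ± 0.18 in UNKC tumours (adjusted p = 0.0669), and the H7 call was lost without H7 replicate 1 (adjusted p = 0.0501), H7 replicate 2 (0.120) or UNKC replicate 1 (0.0520). Ndufv1, which binds NADH, rose by 1.06 ± 0.23 in H7 (adjusted p = 0.0109) and 0.94 ± 0.23 in UNKC tumours (adjusted p = 0.0184); the H7 call was lost without H7 replicate 2 (adjusted p = 0.0603), and the UNKC call without UNKC replicate 1 (0.0645) or 2 (0.0611).

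Among accessory subunits, Ndufa2 had 13 and 13.4 CPM in H7 and 14.3 and 15.5 CPM in UNKC tumours, against 0 and 0.954 CPM in normal pancreas, where 2 reads were counted. Its ratio was 28.1 in H7 (95% counting interval 5.03 to 1110) and 31.7 in UNKC tumours (5.67 to 1252), with adjusted p = 0.0015 and 0.00133. Ndufb2 had 6.31 and 6.84 CPM in H7 and 6.77 and 7.28 CPM in UNKC tumours, against 0.926 and 0.477 CPM in normal pancreas, for ratios of 9.36 (1.93 to 58.0) and 9.96 (2.06 to 61.8). Both genes were higher in each tumour library than in either normal library. Ndufs4, an accessory subunit needed for a stable complex, had 13.6 and 16.7 CPM in H7 and 17.3 and 18.0 CPM in UNKC tumours, against 5.55 and 5.73 CPM in normal pancreas (log2 fold changes 1.43 ± 0.22 and 1.64 ± 0.22, adjusted p = 0.00272 and 0.00171). Ndufs5 and the assembly factor Ndufaf8 had no read in normal pancreas, and passed the test in both tumours. Against a floor of 6 reads over both normal libraries, Ndufs5 was at least 1.14-fold higher in H7 and 1.30-fold higher in UNKC tumours, and Ndufaf8 at least 1.59-fold and 1.62-fold. The Ndufs5 call was lost without any 1 of the tumour libraries in at least 1 comparison (adjusted p up to 0.0726), and the Ndufaf8 call in UNKC tumours without UNKC replicate 2 (adjusted p = 0.0523).

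Complex II, the succinate dehydrogenase, also works in the citric acid cycle. Sdha, its flavoprotein, had 72.2 and 81.4 CPM in H7 and 80.0 and 84.0 CPM in UNKC tumours, against 30.1 and 31.0 CPM in normal pancreas. The groups of tumour and normal libraries did not overlap, with log2 fold changes of 1.33 ± 0.13 in H7 (adjusted p = 0.000596) and 1.42 ± 0.13 in UNKC tumours (adjusted p = 0.000507). Sdhc, a membrane anchor, had 26.6 and 30.7 CPM in H7 and 26.5 and 28.1 CPM in UNKC tumours, against 5.55 and 1.43 CPM in normal pancreas (3.03 ± 0.43 and 2.96 ± 0.43, adjusted p = 0.00212 and 0.00246). Its log2 fold changes were 4.35 and 4.27 without normal replicate 1, and 2.40 and 2.33 without normal replicate 2. Sdhb, the iron-sulphur subunit, had 20.9 and 27.9 CPM in H7 and 27.6 and 29.2 CPM in UNKC tumours, against 15.3 and 20.0 CPM in normal pancreas. It passed the test in UNKC tumours alone (0.69 ± 0.22, adjusted p = 0.0433; H7 0.47 ± 0.22, adjusted p = 0.124). That call was lost without H7 replicate 2, either UNKC library or normal replicate 1 (adjusted p = 0.0512 to 0.137).

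Of the 9 tested genes of complex III, which oxidises ubiquinol, 8 were higher in H7 and 7 in UNKC tumours. Uqcrc1, a core protein of the complex, had 42.1 and 50.6 CPM in H7 and 49.1 and 54.0 CPM in UNKC tumours, against 8.33 and 14.3 CPM in normal pancreas (2.04 ± 0.26 and 2.19 ± 0.26, adjusted p = 0.00145 and 0.00122). Uqcrfs1, the Rieske iron-sulphur protein, had 15.6 and 18.5 CPM in H7 and 25 and 25.9 CPM in UNKC tumours, against 2.78 and 9.07 CPM in normal pancreas. It rose by 1.53 ± 0.43 in H7 (adjusted p = 0.0258) and 2.11 ± 0.43 in UNKC tumours (adjusted p = 0.00845). The H7 call was lost without H7 replicate 1 (adjusted p = 0.0736) or 2 (0.102), and its 2 normal libraries differ by more than 3 times. Without normal replicate 1 the H7 value was 0.94 and without normal replicate 2 it was 2.66, and the UNKC value without normal replicate 2 was 3.22. Cyc1, cytochrome c1, rose by 1.2 ± 0.29 in H7 tumours (adjusted p = 0.0164; 0.0801 without H7 replicate 2), and its value in UNKC tumours was 0.79 ± 0.29 (adjusted p = 0.0704). Without normal replicate 1 the UNKC value was 1.26 (adjusted p = 0.0156), and without normal replicate 2 it was 0.48 (adjusted p = 0.160).

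In complex IV, cytochrome c oxidase, 11 of 17 genes were higher in H7 and 10 in UNKC tumours. Cox4i1 had 70.2 and 86.2 CPM in H7 and 75.2 and 76.0 CPM in UNKC tumours, against 12 and 26.7 CPM in normal pancreas (2.01 ± 0.34 and 1.97 ± 0.34, adjusted p = 0.00416 and 0.0048). Cox6c had 26.7 and 31.6 CPM in H7 and 20.3 and 22.6 CPM in UNKC tumours, against 3.70 and 3.82 CPM in normal pancreas (2.96 ± 0.21 and 2.51 ± 0.21, adjusted p = 0.000236 and 0.000395). Both genes were higher in each tumour library than in either normal library. Cox7a2l, which helps to join complexes III and IV into supercomplexes, rose by 2.31 ± 0.16 in H7 (adjusted p = 0.000221) and 2.16 ± 0.16 in UNKC tumours (adjusted p = 0.000285).

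In complex V 13 of 18 genes were higher in H7 and 14 in UNKC tumours. Atp5b had 251 and 315 CPM in H7 and 303 and 309 CPM in UNKC tumours, against 67.1 and 77.3 CPM in normal pancreas (1.97 ± 0.16 and 2.08 ± 0.16, adjusted p = 0.000345 and 0.000314). Atp5a1 had 231 and 274 CPM in H7 and 254 and 263 CPM in UNKC tumours, against 58.3 and 57.3 CPM in normal pancreas (2.13 ± 0.14 and 2.16 ± 0.14, adjusted p = 0.000186 and 0.000189). These 2 genes had 120 or more reads in each normal library, the best measured of the list there, and did not overlap between tumours and normal pancreas. Atp5j, the coupling factor in the stalk, had 15.3 and 16.1 CPM in H7 and 17.7 and 16.3 CPM in UNKC tumours, against 2.78 and 0.477 CPM in normal pancreas (3.26 ± 0.48 and 3.37 ± 0.48, adjusted p = 0.00227 and 0.0021). Without normal replicate 1 the Atp5j values were 5.06 and 5.17. Of the 3 genes for the c ring, Atp5g3 was highest at 33.2 ± 5.41 CPM in H7 and 32.2 ± 1.96 CPM in UNKC tumours, against 7.52 ± 0.161 CPM in normal pancreas. Atp5g1 had 6.49 ± 1.27 and 5.38 ± 1.29 CPM against 0.940 ± 0.0201 CPM, and Atp5g2 had 0.418 ± 0.0645 and 0.234 ± 0.0334 CPM with no read in normal pancreas. Cycs was at 2.95 ± 0.605 CPM in H7 and 2.46 ± 0.0885 CPM in UNKC tumours, against 2.83 ± 1.39 CPM in normal pancreas, and did not pass the test (0.06 ± 0.46 and -0.20 ± 0.47, adjusted p = 0.920 and 0.740).

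**Figure D3:**
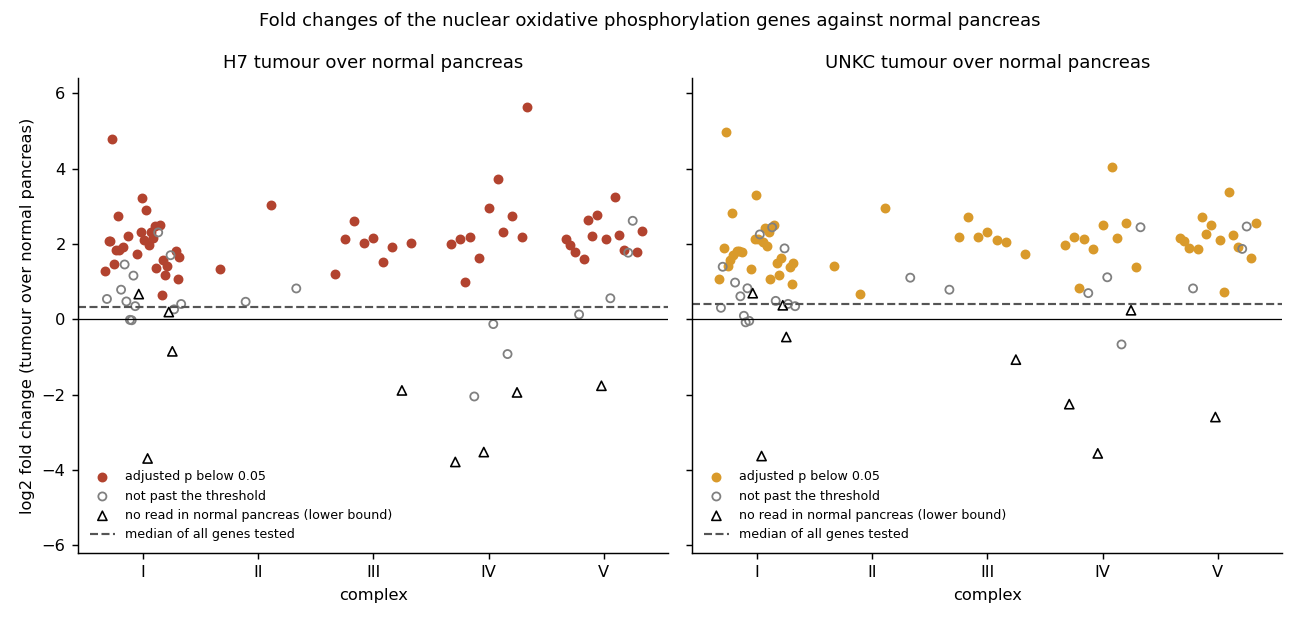
Log2 fold change of each tested gene over normal pancreas, by complex (y axis, log2 fold change of H7 tumour, left, or UNKC tumour, right; x axis, complex; filled points, adjusted p below 0.05; open points, not past the threshold; open triangles, lower bounds of genes with no read in normal pancreas; dashed line, median of all genes tested, 0.34 and 0.42; Cycs is left out). Filled points lie above the dashed line in each complex.

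Removing the length trend left Atp5b at 1.27 and 1.22, Atp5a1 at 1.62 and 1.48, Sdha at 0.93 and 0.83, Sdhc at 1.94 and 1.74, Uqcrc1 at 1.24 and 1.22, Cox6c at 1.22 and 0.77 and Ndufa2 at 3.10 and 3.26 in H7 and UNKC tumours, all still past the threshold (largest adjusted p = 0.0308). Most calls did not hold: of the 64 genes called higher in H7 tumours 20 still were and 44 missed the threshold, and of the 62 in UNKC tumours 17 still were, 43 missed it and 2 were lower. Cox4i1 missed it at 0.45 (adjusted p = 0.285) and 0.36 (adjusted p = 0.401). Cox6a1, Cox8a, Ndufs4, Ndufs5, Ndufaf8, Ndufa6, Ndufv1, Uqcrfs1 and Atp5g3 missed it in both tumours too (edgeR adjusted p = 0.0541 to 0.847), as did Ndufa4 against normal pancreas (0.132 and 0.256), Ndufs1 (0.299 and 0.695), Cyc1 (0.761 and 0.284), and Sdhb in UNKC tumours (0.0611). Ndufs7, Atp5h and Cox7c were then lower in both tumours, Sdhb in H7 tumours, and Cox5b and Ndufv3 in UNKC tumours. The 2 of these called higher in UNKC tumours before were Cox5b (0.82, then -0.88) and Atp5h (0.73, then -0.97). Leaving out 1 normal library moved the fold by over 1.5 times for 24 of the 64 genes in H7 and 20 of the 62 in UNKC tumours, and leaving out 1 tumour library for 0 in both. In the authors' deposited table, 58 of 88 genes with an adjusted p were higher in H7 tumours and 0 lower, beside 24.5% of all genes higher and 24.7% lower. The authors' deposited table gave 53 of 90 higher and 0 lower in UNKC tumours, beside 23.9% and 23.5%.

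Markers of other cell types also differed between the tumours and normal pancreas. The 10 acinar genes summed to 34.4 and 43.3 CPM in H7 and 15.6 and 4.67 CPM in UNKC tumours, against 14738 and 14029 CPM in normal pancreas, and all 10 were lower in both tumours. The 5 macrophage genes summed to 822 and 667 CPM in H7 and 350 and 329 CPM in UNKC tumours, against 79.2 and 148 CPM in normal pancreas. The 5 fibroblast genes summed to 730 and 1601 CPM in H7 and 2431 and 4066 CPM in UNKC tumours, against 334 and 510 CPM in normal pancreas. Of these 5, 3 were higher and 0 lower in each tumour, and 1 was below 0 in UNKC tumours. Unlike the sum, Pdgfra and Dcn were higher in H7 than UNKC tumours (2.06 ± 0.34 and 1.82 ± 0.28). The other 3 were below 0 there without passing the test. The part of these cell types in the fold changes was not tested, and in bulk tissue fewer cells of a type and less RNA per cell cannot be told apart.

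The tumours were compared with each other to see whether the 2 lines differ in these genes. In H7 over UNKC tumours 2 of 93 genes were higher and 0 lower, beside 7.06% higher and 11.1% lower of all genes tested, or 18.2% in either direction. At an unadjusted p below 0.05, 3 were higher and 0 lower, again without a share of all genes. DESeq2 gave 4 higher and 0 lower, beside 15.1% and 14.9%, and edgeR with the length trend removed 2 and 0, beside 11.0% and 9.33%. The median log2 fold change was -0.03, and 81 of 93 genes lay within 0.5 of 0. Ndufa4l2, which in other tissues is induced by HIF under low oxygen and is also a pericyte gene, had 28.2 and 18.8 CPM in H7 tumours, against 2.48 and 2.66 CPM in UNKC tumours. Normal pancreas had 0.926 and 0 CPM. Both H7 libraries were far above both UNKC libraries, at 3.19 ± 0.43 on the log2 scale (adjusted p = 0.00339). Against normal pancreas, with 2 reads, the ratio was 49.4 in H7 (8.86 to 1953; adjusted p = 0.000845) and 5.46 in UNKC tumours (0.973 to 217; adjusted p = 0.0649).

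Ndufa4, a complex IV subunit whose paralogue is Ndufa4l2, had 34.1 and 39.4 CPM in H7 tumours, against 19.1 and 22.9 CPM in UNKC tumours. Normal pancreas had 6.48 and 9.54 CPM. The groups did not overlap, and the log2 fold change of H7 over UNKC tumours was 0.81 ± 0.20 (adjusted p = 0.0410). This call was lost with total count scaling (0.74, adjusted p = 0.187) and without any 1 tumour library (0.69 to 0.94, adjusted p = 0.0898 to 0.230). The Ndufa4l2 call was lost without H7 replicate 1 (2.89, adjusted p = 0.0570) and held without each of the other libraries in turn. Uqcrfs1 differed the other way, at -0.57 ± 0.34, and did not pass (adjusted p = 0.322), but passed in a fit of the 4 tumour libraries alone (-0.56, adjusted p = 0.0263). It also passed without normal replicate 1 (-0.57, edgeR adjusted p = 0.0300) and without normal replicate 2 (-0.57, 0.0308).

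Pericyte and smooth muscle markers also differed between the tumours. Of 8 such genes 2 were higher in H7 than UNKC tumours (Pdgfrb by 2.41 ± 0.27, Acta2 by 2.35 ± 0.32, adjusted p = 0.00356 and 0.00629), 3 were lower and 3 passed in neither direction. Among those lower were Cspg4 at -2.02 ± 0.49 and Myh11 at -1.73 ± 0.43 (adjusted p = 0.0395 and 0.0426). The median log2 fold change of the 8 genes was -0.88, with 3 above 0 and 5 below. Their sum pointed the other way, at 380 and 345 CPM in H7 and 82.6 and 127 CPM in UNKC tumours, against 115 and 125 CPM in normal pancreas. The sum thus rests on some of the genes, and no marker was at 0 in any library. The part of these markers in the Ndufa4l2 difference was not tested.

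**Figure D4:**
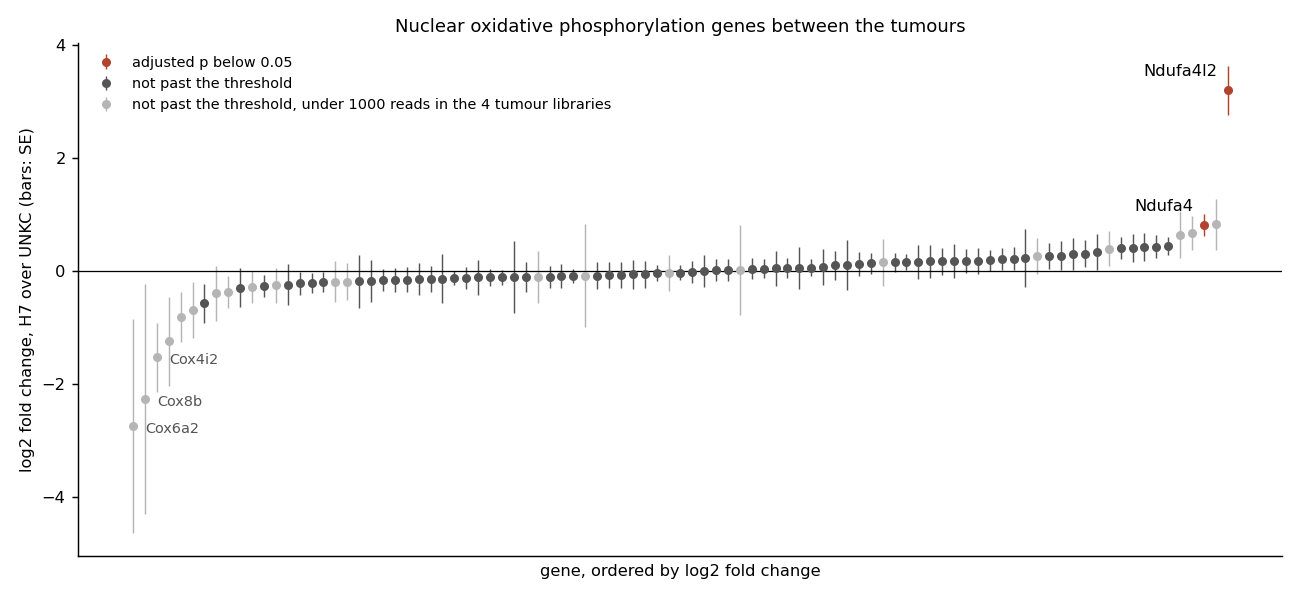
Log2 fold change of H7 over UNKC tumours for the 93 tested genes in rank order (y axis, log2 fold change with SE bars; red, adjusted p below 0.05; light grey, genes under 1000 reads over the 4 tumour libraries). Ndufa4l2 at 3.19 and Ndufa4 at 0.81 are the red points, and the widest bars belong to the muscle isoforms Cox6a2 and Cox8b.

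Complex IV has isoforms whose use depends on the tissue. Cox6a2, Cox7a1 and Cox8b are the heart and skeletal muscle forms, and Cox6a1, Cox7a2 and Cox8a the common ones. Cox6a2 had 6 and 80 reads in H7 and 2 and 648 reads in UNKC tumours, against 9 and 1 reads in normal pancreas. Cox8b had 0 and 54 reads in H7 and 1 and 292 reads in UNKC tumours, against none in normal pancreas. Cox7a1 had 22 and 42 reads in H7 and 31 and 146 reads in UNKC tumours, against 0 and 2 reads in normal pancreas. In each case replicate 2 of a tumour group stood above its replicate 1, the tumour groups overlapped, and no comparison passed the test (adjusted p of H7 against UNKC tumours 0.337 to 0.530). The summed reads of 10 skeletal muscle markers moved with them, at 750 and 54377 reads in H7 and 158 and 208086 reads in UNKC tumours, against 24 and 8 reads in normal pancreas, and 1 of the 10 was at 0 in each replicate 1 of the tumours, 0 in each replicate 2, and 4 and 5 in the normal libraries. The 6 heart or slow muscle markers had 90 and 1069 reads in H7 and 9780 and 13500 reads in UNKC tumours, against 25 and 6 in normal pancreas, with 3 of the 6 at 0 in UNKC replicate 1. Most UNKC reads of this list were of Tnnt2, cardiac troponin T, at 9748 and 7288. H7 tumours had 52 and 135 Tnnt2 reads (H7 over UNKC -6.27 ± 0.42, adjusted p = 0.000696). In UNKC tumours Tnnt2 did not rise in replicate 2, while the sum of the list did, and there 0 of the 6 were at 0. The part of either marker list in the isoform reads was not tested. Without the second replicates of both tumours, the muscle isoforms had 0 to 31 reads a library.

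**Figure D5:**
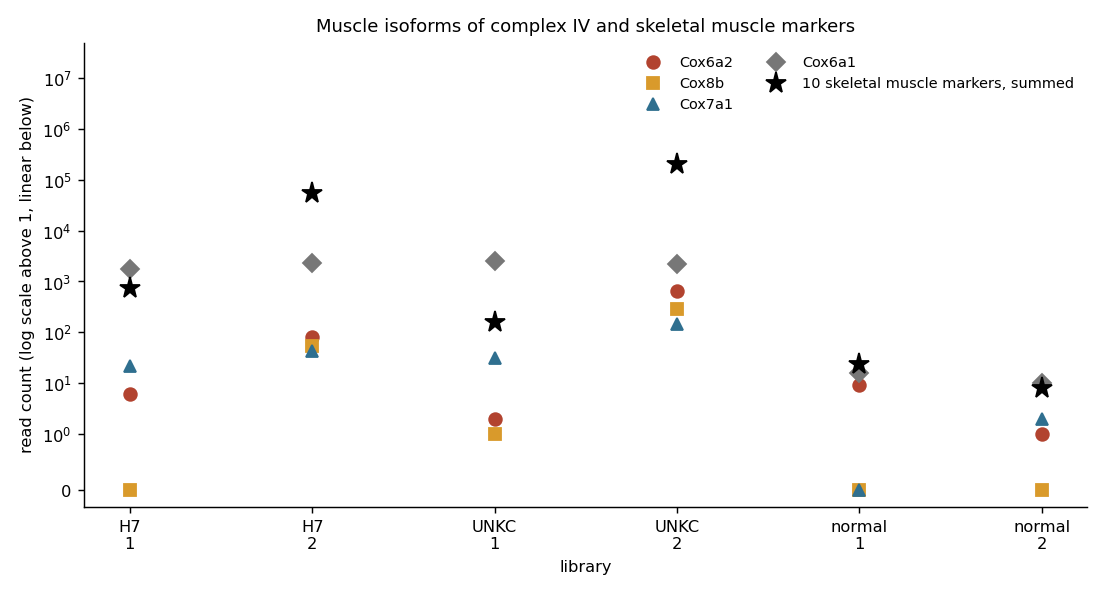
Read counts of 3 muscle isoforms of complex IV, the common isoform Cox6a1 and the sum of 10 skeletal muscle markers in each library (y axis, reads, log scale above 1 and linear below; x axis, library). The muscle isoforms and markers peak in H7 replicate 2 and UNKC replicate 2, while Cox6a1 stays between 1786 and 2506 reads in the tumours.

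The common isoforms Cox6a1 and Cox8a did not follow that pattern. Cox6a1 had 25.9 and 29.6 CPM in H7 and 27.8 and 26.3 CPM in UNKC tumours, against 7.41 and 4.77 CPM in normal pancreas (2.18 ± 0.23 and 2.15 ± 0.23, adjusted p = 0.000761 and 0.000873). Cox8a had 35.7 and 39.7 CPM in H7 and 33.8 and 32.9 CPM in UNKC tumours, against 8.33 and 2.86 CPM in normal pancreas (2.75 ± 0.38 and 2.57 ± 0.38, adjusted p = 0.00195 and 0.00262). For both genes the 4 tumour libraries lay close together and above both normal libraries. Cox7a2 is left out of this statement. It was at 0.307 CPM per kb in normal pancreas, and its sample counts were 0.276 times its table counts in tumours. Cox4i2, a form favoured at low oxygen in lung, had 4 and 11 reads in H7 and 30 and 22 reads in UNKC tumours, and Cox6b2, a testis form, had 4 and 14 reads in H7 and 15 and 6 reads in UNKC tumours. Neither had a read in normal pancreas, and neither passed a test.

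Under the TMM scaling, subunits encoded in mitochondrial DNA ran the other way. Of 13 such genes 9 were tested, with medians of -3.48 in H7 and -4.32 in UNKC tumours. In both tumours 7 were lower than in normal pancreas, beside 21.9% and 19.3% of all genes. The 13 genes summed to 4024 and 3565 CPM in H7 and 2587 and 2851 CPM in UNKC tumours, against 36577 and 26092 CPM in normal pancreas. Unscaled, they took 277835 of 33332516 and 277713 of 36307030 reads in genes in H7 tumours. Normal pancreas had 79019 of 12077320 and 54684 of 8204225, shares that H7 tumours exceeded and UNKC tumours did not. These totals include ribosomal RNA, which took far more of the normal reads. Outside ribosomal RNA the totals were 23837549 and 27167951 reads in H7 and 31781993 and 30838996 in UNKC tumours, against 775599 and 697074 in normal pancreas. Of those totals, the share of the 13 genes was lower in every tumour library than in either normal library. The size of the fall thus depends on the scaling and on the total used. ND4, a complex I subunit, fell by 4.0 ± 0.30 in H7 (adjusted p = 0.000263) and by 4.90 ± 0.31 in UNKC tumours (adjusted p = 0.000185) on the log2 scale. ND1, ND2, ND5, ND6, CYTB and COX1 also fell in both, between 2.64 and 5.0 on the log2 scale. ND3, with 30 and 48 reads in H7, against 2 and 1 in UNKC tumours, and COX3, with 14 and 16 against 5 and 6 reads, were higher in H7 than UNKC tumours. The ND3 ratio was 31.1 (6.04 to 199; adjusted p = 0.00593), and COX3 differed by 1.67 ± 0.46 on the log2 scale (adjusted p = 0.0451). COX2, ATP6, ATP8 and ND4L had 0 to 9 reads in every library and COX3 1 to 16, beside 28180 or more for COX1, and how reads were assigned to them was not tested.

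Other lists of mitochondrial genes are given beside these values, and their counts stand beside the same shares of all genes, 29.6% higher and 21.9% lower in H7 and 29.1% and 19.3% in UNKC tumours. Of 77 mitochondrial ribosomal proteins 46 passed as higher and 2 as lower in H7 tumours, and 41 and 0 in UNKC tumours, with medians of 1.30 and 1.17. Of 80 cytosolic ribosomal proteins, whose median length was 703 bases, 58 passed as higher in H7 and 53 in UNKC tumours, and 3 as lower in each, with medians of 2.11 and 1.83. Of 17 genes of the citric acid cycle 11 were higher and 0 lower in each tumour, led by fumarase, Fh1, at 2.64 ± 0.24 and 2.61 ± 0.24 (adjusted p = 0.000435 and 0.000479). Of 38 further assembly factors 12 were higher and 0 lower in H7, and 8 higher and 1 lower in UNKC tumours, near or below the share of all genes higher. Coa5, a complex IV assembly factor, rose by 3.28 ± 0.28 and 3.13 ± 0.28 (adjusted p = 0.000369 and 0.000455).

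Of 12 regulators of mitochondrial genes 3 were higher and 3 lower in each tumour. These counts lie near the shares of all genes, 29.6% higher and 21.9% lower in H7 and 29.1% and 19.3% in UNKC tumours. Ppargc1a, a coactivator of mitochondrial biogenesis, had 6 and 14 reads in H7 and 274 and 243 reads in UNKC tumours, against 37 and 24 in the smaller normal libraries. It fell by 6.70 ± 0.45 in H7 (adjusted p = 0.000201) and by 2.28 ± 0.36 in UNKC tumours (adjusted p = 0.00344), and was lower in H7 than UNKC tumours (-4.42 ± 0.41, adjusted p = 0.00208). Ppargc1b fell by 3.80 ± 0.64 in H7 and by 3.82 ± 0.64 in UNKC tumours (adjusted p = 0.00399 and 0.00406), and Pprc1, the third of that family, was the other one lower. Tfam, the packaging factor of mitochondrial DNA, rose by 1.43 ± 0.18 and 1.10 ± 0.18 (adjusted p = 0.00134 and 0.00379), and Gabpa and Yy1, whose motifs are shown above, were the other 2 higher. Nrf1, whose motif is also shown, was among the 6 regulators that passed in neither direction in either tumour. The part of these factors in the fold changes was not tested.

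Counting by the authors affected single genes. The reads per sample were about 2.00 times the fragment counts of the comparison tables for the median gene of the list, but under 1.5 times for 8 of 84 genes with at least 200 table counts, beside 5.92% of 12172 genes. Uqcr11 had 0 to 1 reads in the sample counts, but 397 and 542 fragments in H7 and 600 and 620 in UNKC tumours, against 0 and 4 in normal pancreas, in the tables. Sdhd had a ratio of 0.104, and Cox7a2, Ndufa8, Ndufa6 and Ndufa12 had ratios of 0.276 to 0.428. With table counts, Sdhd rose by 1.6 ± 0.37 in H7 (adjusted p = 0.0131) and 1.89 ± 0.37 in UNKC tumours (adjusted p = 0.00759), where the sample counts, with 4 reads in normal pancreas, gave ratios of 1.78 (0.483 to 14.9) and 2.16 (0.588 to 17.9), not past the threshold. The Ndufa6 values were 1.02 ± 0.18 and 1.19 ± 0.18 with table counts, against ratios of 6.76 (1.39 to 42.0) and 7.11 (1.47 to 44.2) with sample counts. Exon bases were shared with a gene on the other strand for 2 of these 8 genes and for 27 of the other 76, and the cause was not tested. Subunits on the X chromosome, counted but outside the tables used for the choice, gave log2 fold changes of 1.39 and 1.15 (Ndufa1, not past the threshold), 2.04 and 2.05 (Cox7b) and 1.32 and 1.32 (Ndufb11) in H7 and UNKC tumours.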

How the data were processed

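The authors deposited raw whole-number read counts per gene for each sample, and comparison tables with fragment counts, TPM, gene length, log2 fold changes, p-values and adjusted p-values. Per the submitters' processing notes, reads were handled with STAR, featureCounts and DESeq2 1.18.1 on mm10; strand and settings are not given in the sources used here. The counts of each sample hold both mates of a pair, and those counts were tested here as deposited. The 16306 genes kept by filterByExpr were scaled by TMM (factors of 2.07 to 2.23 in tumours, 0.179 and 0.256 in normal pancreas) and tested with the quasi-likelihood model of edgeR 4.0.16 in R 4.3.3, fitted to all 6 libraries. P-values were adjusted by Benjamini-Hochberg over all genes tested, with a threshold of 0.05. Folds over a group without reads are bounds, computed from a floor of 6 reads over it (1.41 CPM in normal pancreas). With 1 to 6 reads in a group, or 1 to 3 pairs, the ratio has a 95% exact binomial interval on pairs. Floors and these intervals hold counting error alone.

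Genes were named by rule: up to 8 highest and 8 lowest called genes of at least 5 CPM per comparison, isoform pairs, core subunits and the highest and lowest levels, and up to 2 in each direction from other lists. The text does not name them all, and 1 of them is not reported here. Ndufs4, Ndufs7, Ndufv3, Cox5b, Cox7c, Atp5h, Pprc1, Gabpa, Yy1 and Nrf1 (completing small counts), the genes with unequal counts and the X-linked subunits were chosen after their values were seen. The genes, lists and alternatives were chosen with earlier results of these data known. Replicates correlated in log2 CPM across genes at r = 0.967 in H7 and 0.949 in UNKC tumours, against 0.801 in normal pancreas. The alternatives were other scalings, filters, counts and tests (DESeq2 1.42.0), a loess trend on gene length (span 0.5) and libraries left out. The steps were tested on simulated data.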

Additional observations from a re-analysis of the deposited data

Results flagged for a closer look

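Of the 93 tested genes, 2 differed between the tumours in the test of that difference itself. Ndufa4l2 was higher in H7 than UNKC tumours by 3.19 on the log2 scale, and Ndufa4 by 0.81. Their values in each library and the libraries on which each call rests are given in the report.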

How the results depend on the processing

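Against normal pancreas, 49 to 71 genes were higher and 0 lower when 1 library was left out, at 53 to 71 in H7 and 49 to 68 in UNKC tumours, with 0 lower throughout. Of all genes, 3581 to 5726 were higher and 2600 to 3534 lower in H7 tumours in these fits. In UNKC tumours 3507 to 5679 of all genes were higher and 2183 to 3265 lower. The number of calls thus moved for all genes as well as for the list. The other scalings apart from total counts, the filters, the table counts, halved counts, DESeq2 and the fit of 4 libraries gave 53 to 67 higher. Of these fits, the share of all genes is given above for DESeq2 alone. Removing the length trend gave 20 higher and 4 lower in H7 and 17 higher and 5 lower in UNKC tumours, and leaving out both second tumour replicates gave 0 in each comparison, with 0 of all genes against normal pancreas. With the length trend removed, 16 of 93 values in H7 and 26 in UNKC tumours changed sign, 6 and 13 of them values called before. Among genes named by rule with a call in either fit, these were Cox6b1 (-0.089) and Sdhb (-0.71) in H7 tumours and Ndufa4 (-0.35), Ndufv1 (-0.059) and Sdhb (-0.60) in UNKC tumours. Total counts turned Cycs in UNKC tumours (3.14, under the median of all genes there). Cycs, never called in the fits without 1 library, ran there from -0.34 to 0.71 in H7 and from -0.61 to 0.44 in UNKC tumours. Between the tumours, 0 to 2 genes were higher and 0 to 1 lower when 1 library was left out, 1 higher with total counts, 4 higher with DESeq2 (Cox6c and Ndufaf7 added), and 3 higher and 1 lower (Uqcrfs1) with the 4 tumour libraries alone. The cause of these changes was not tested. The labels give the groups the same replicate numbers but do not say that they pair samples, so the numbers were not taken as pairs. Same-numbered libraries correlated in their deviations at 0.526 (H7 with UNKC), -0.01 and -0.02 (each with normal pancreas). The H7 and UNKC libraries of 1 number thus deviated together in part, and the source of this was not tested. A replicate block gave 61 and 59 genes higher against normal pancreas and 2 between the tumours, and the share of all genes in that fit is not given. Depth in normal pancreas, with a median of 6 and 7.5 reads per gene, limits every comparison with it.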
